A study of Mus musculus with 14 samples.

Results

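The 30 genes described here encode the enzymes and the main regulators of cholesterol and fatty acid synthesis. They were listed by name and role, with earlier results of these data known, and all 30 were among the 22842 genes found in both count tables of the study. The study sequenced single lineage-negative, Tom-positive (Lin- Tom+) mouse cells, in which an induced reporter marks blood stem cells and is passed to their progeny, and it asked how these cells differentiate in the steady state. Cells were sorted into 96-well plates and read at the 3′ end of each transcript with a modified Smart-seq2 protocol. The labels name the mouse and the day, but no strain, age or promoter of the reporter, and they do not state the event from which the days were counted. Day 3 is represented by mouse m4539 on 2 plates and day 10 by mouse m4533 on 3 plates. Day 17 is represented by 3 mice, m4528 on 4 plates and m605 and m606 on 2 plates each. All groups carried the same reporter and the same sort, and days 3 and 10 had 1 mouse each, so these days have no replicate error. Another plate of day 17 mixed m605 with m606 and was left out as a sample of its own. The tables print gene symbols in capitals (SCD1, FADS1, MSMO1, HMGCS1), which are written below in the usual mouse form.

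Cholesterol is built from acetyl-CoA through mevalonate, farnesyl diphosphate, squalene and lanosterol, while fatty acid synthesis draws on the same acetyl-CoA and is followed by elongation and by desaturation, which places double bonds in the chain. Both branches are controlled by the sterol regulatory element-binding proteins, membrane-bound transcription factors that are released when sterols are scarce and held back by the Insig proteins when sterols are plentiful. Dividing cells need both lipid classes for new membranes.

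Barcodes with at least 500 detected genes and 10000 counts were kept as cells, which left 1010 of 9357 barcodes: 190 of mouse m4539, 107 of m4533, 288 of m4528, 143 of m605, 189 of m606 and 93 of the shared plate. The kept cells of a mouse held 25482791 to 64257177 counts. The 96 well barcodes recur on every plate set, and all 96 were found on more than 1 plate, so a cell is named by plate and barcode. Mouse m4528 stood apart in sex-linked genes, with 0.156 CPM (counts scaled to the library total) of Xist against 181 to 1243 CPM in the other 4 mice, and 131 CPM of Eif2s3y. Cells were gated by marker genes: a cell entered the stem, erythroid, megakaryocyte or myeloid gate when at least 3 markers of that list were on and led the next list by at least 2. None of the 30 genes is a gate marker. These 4 gates took 825 cells, of which 90 had the smallest lead allowed, while 104 cells missed one of them by 1 marker. A further 9 cells were gated as basophils. In the sums tested below the stem list reached 5358 to 7113 CPM in stem-gated cells against 298 to 597 CPM in erythroid-gated and 168 to 297 CPM in myeloid-gated cells. The erythroid list reached 7689 to 10846 CPM in erythroid-gated cells and the neutrophil list 15919 to 17480 CPM in myeloid-gated cells. Megakaryocyte-gated cells still held 1001 to 1722 CPM of the stem list.

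Counts were summed over the cells of a gate in a mouse, with at least 10 cells each, which gave 5 stem sums (182, 75, 103, 16 and 37 cells), 3 erythroid sums (18, 36 and 38 cells), 3 megakaryocyte sums (15, 18 and 23 cells) and 3 myeloid sums (82, 44 and 47 cells). Stem values are given below in the order m4539, m4533, m4528, m605 and m606. Erythroid and myeloid values are in the order m4528, m605 and m606, and megakaryocyte values in the order m4533, m4528 and m606. Gates were compared within mice by edgeR's quasi-likelihood test with the mouse as a block, and a gene was called at a Benjamini-Hochberg adjusted p under 0.05 over all 17460 genes tested. Differences are log2 ratios with their standard error (SE). Each gate differed from the stem gate in a further respect. Of stem-gated cells 19.3% lay above the median of the cell cycle list, against 88.2% of erythroid-gated, 69.2% of megakaryocyte-gated and 84.6% of myeloid-gated cells, and the median depth of a cell was 118786, 251483, 171275 and 242455 counts for these gates. Of the 12 genes of that list 9 were called higher in erythroid-gated, 6 in myeloid-gated and 3 in megakaryocyte-gated cells. The part of cycling and of depth in the results below was not tested except where a value is given. In sums of cells, fewer cells with a transcript and less of it per cell cannot be told apart, and a CPM value compares a gene with itself and not with another gene.

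The promoters of 3 genes are shown because their genes have the lowest adjusted p among the mevalonate and sterol steps, in erythroid-gated cells (Msmo1 and Hmgcs1), or the largest fitted rise with day (Ebp). Each line is the 250 bases before the transcription start, 5′ to 3′ on the gene's strand, from RefSeq on GRCm38.p6. Capitals mark the CCAAT box, which reads ATTGG when it lies on the other strand, and, in Hmgcs1, the letters TCACCCCAC, a match to the sterol regulatory element pattern TCACNCCAC. The windows are chr13:119690101-119690350 on the plus strand for Hmgcs1, chr8:64733579-64733828 on the minus strand for Msmo1 and chrX:8193513-8193762 on the minus strand for Ebp.
Hmgcs1: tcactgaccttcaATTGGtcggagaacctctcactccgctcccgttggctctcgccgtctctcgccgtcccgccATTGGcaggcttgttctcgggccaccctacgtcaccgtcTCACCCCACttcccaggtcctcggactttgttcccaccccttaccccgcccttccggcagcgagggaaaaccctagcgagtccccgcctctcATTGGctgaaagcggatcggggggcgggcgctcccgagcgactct
Msmo1: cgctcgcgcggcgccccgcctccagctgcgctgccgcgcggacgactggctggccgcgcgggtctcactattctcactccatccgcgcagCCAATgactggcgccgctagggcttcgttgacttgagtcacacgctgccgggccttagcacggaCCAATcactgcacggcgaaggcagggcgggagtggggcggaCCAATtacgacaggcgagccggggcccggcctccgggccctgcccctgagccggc
Ebp: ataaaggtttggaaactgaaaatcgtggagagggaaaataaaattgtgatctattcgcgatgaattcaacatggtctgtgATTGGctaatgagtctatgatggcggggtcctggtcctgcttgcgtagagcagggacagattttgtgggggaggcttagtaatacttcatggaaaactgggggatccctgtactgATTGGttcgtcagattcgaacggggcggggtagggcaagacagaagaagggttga

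RefSeq promoters of 300 bases, from 250 before to 50 after the start, were matched for 24 of the 30 genes, with 29 promoters. Fdps, Fdft1, Sqle, Scd1, Scd2 and Fads1 had no entry in the table used. On either strand, CCAAT was found in 21 of these 29 promoters (72.4%) against 37.4% of all 32851 promoters, and GGGCGG, the GC box, likewise in 21 (72.4%) against 35.7%. The median G and C share was 62.3% in these promoters and 52.7% in all promoters, so the bases themselves differ. CACGTG, the E-box, was found in 5 promoters (17.2%) against 7.15%. TCACNCCAC was found in 1 promoter (3.45%), that of Hmgcs1, against 1.24% of all promoters, and its match starts 137 bases before the start. Matches of different motifs did not overlap, and a match is a description of the letters only.

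Across the whole set the stem gate held the most of these transcripts and the groups overlapped. The summed level of the 30 genes was 1740, 1647, 1465, 1166 and 1139 CPM in stem-gated cells, a mean of 1431 ± 273 (SD, n = 5 mice). It was 1383, 899 and 1017 CPM in erythroid-gated cells (1100 ± 252, n = 3), 1589, 1429 and 1047 CPM in megakaryocyte-gated cells (1355 ± 279, n = 3) and 1432, 826 and 979 CPM in myeloid-gated cells (1079 ± 315, n = 3). Within each of the 3 day 17 mice the stem sum exceeded the erythroid and the myeloid sum, by a small margin in m4528. The stem sum of m605 holds 260 CPM of Mvk from 1 cell. It also holds 217 CPM of Elovl5 and 230 CPM of Fads1, each mostly from 1 cell. Cells of at least 50000 counts were thinned to 50000, and shallower cells were left out, here and in all thinned shares below. At day 17 this left out 15 of 156 stem-gated, 3 of 92 erythroid-gated, 1 of 50 megakaryocyte-gated and 11 of 173 myeloid-gated cells. The median thinned cell held counts of 4 to 6 of the 30 genes in the stem sums, 6.5 to 8 in the erythroid, 5 to 7 in the megakaryocyte and 5.5 to 8 in the myeloid sums. The order of these medians goes against that of the summed CPM, and no order is read from them.

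**Figure D1:**
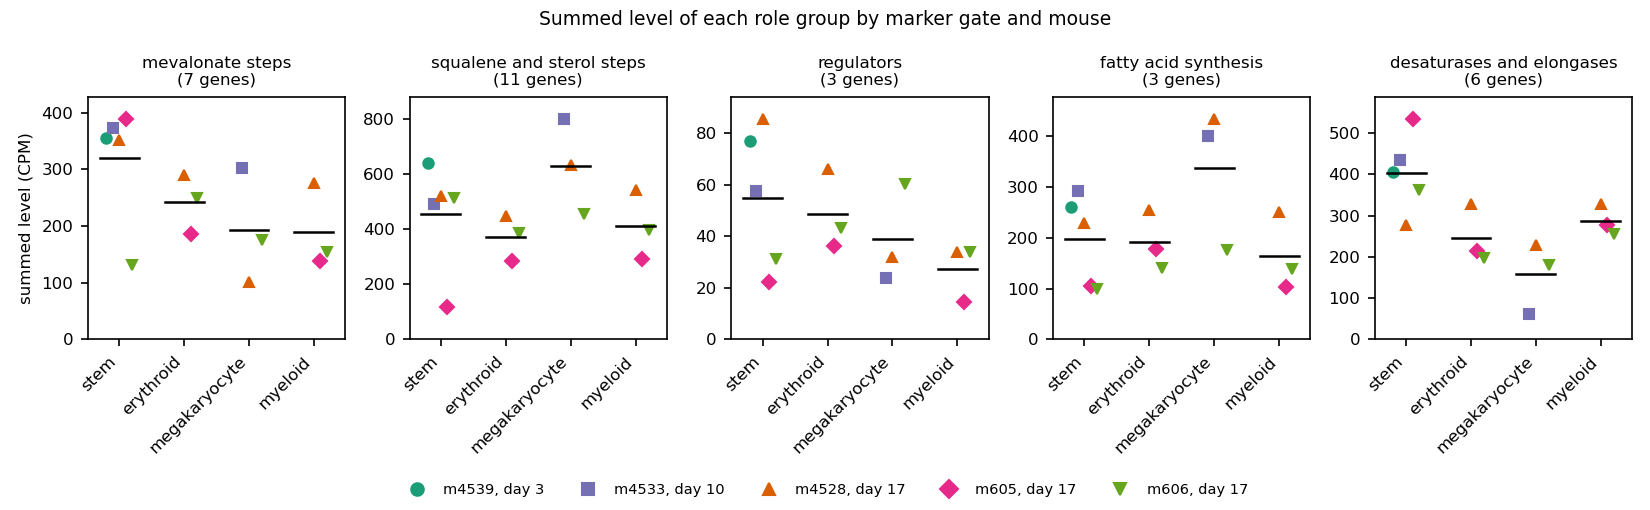
Summed level of the genes of each role (CPM) by gate. Points are mice and the bar is the mean. For the desaturases and elongases the mean is highest in stem-gated cells (403 CPM) and the megakaryocyte-gated sums lie below all stem-gated sums. The erythroid-gated and myeloid-gated sums overlap with them, and in m4528 both (327 and 328 CPM) lie above the stem sum (277 CPM). The gates overlap in the other roles.

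Of the 30 genes, none was called in erythroid-gated against stem-gated cells, where 5.11% of all genes were called higher and 5.38% lower, 10.5% in all. Unadjusted, 4 of the 30 had p under 0.05, against 4443 of all genes, and DESeq2 called 5 lower (Hmgcs1, Mvk, Msmo1, Sc5d and Elovl6), where it called 13.6% of all genes lower and 9.03% higher. Positive differences numbered 17 and negative ones 13, with a median of 0.29 against 0.08 over all genes. In myeloid-gated against stem-gated cells 2 of the 30 were called, both lower (Scd1 and Fads1), where 2.1% of all genes were called lower, 4.06% higher and 6.16% in either direction. DESeq2 called the same 2 lower and Fdps and Ebp higher, where it called 7.51% of all genes lower and 6.5% higher. Positive and negative differences numbered 15 each, and the median was 0.06 against 0.25 over all genes. With RLE scaling in place of TMM the median over all genes fell by 0.22 there, the set's median became -0.12, and 53.6% of all calls were higher instead of 65.9%, while the 15 and 15 and both calls stayed. In megakaryocyte-gated against stem-gated cells none of the 30 was called, where 0.578% of all genes were called higher, 0.722% lower and 1.3% in either direction. Unadjusted, 8 of the 30 had p under 0.05, against 2883 of all genes, and DESeq2 called 4 lower (Acat2, Scd1, Elovl6 and Fads1), where it called 7.46% of all genes lower and 4.34% higher. Erythroid-gated against myeloid-gated cells gave 1 call, Scd1, higher, where 1.51% of all genes were called higher, 4.59% lower and 6.1% in either direction. DESeq2 called Scd1 and Fads1 higher and Msmo1 lower, where it called 4.52% of all genes higher and 9.2% lower. Counted in either direction, the shares of the 30 that edgeR called were near or below those of all genes. On simulated sums of these sizes the test recovered 6% of 4-fold and 38% of 16-fold changes between erythroid-gated and stem-gated cells. Between myeloid-gated and stem-gated cells it recovered 7% and 42.4%. The simulation took its spread from a fit without the mouse and changed only a small share of the genes. These shares therefore do not give the smallest change that could be called, and some differences below 4-fold were called in the data.

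**Figure D2:**
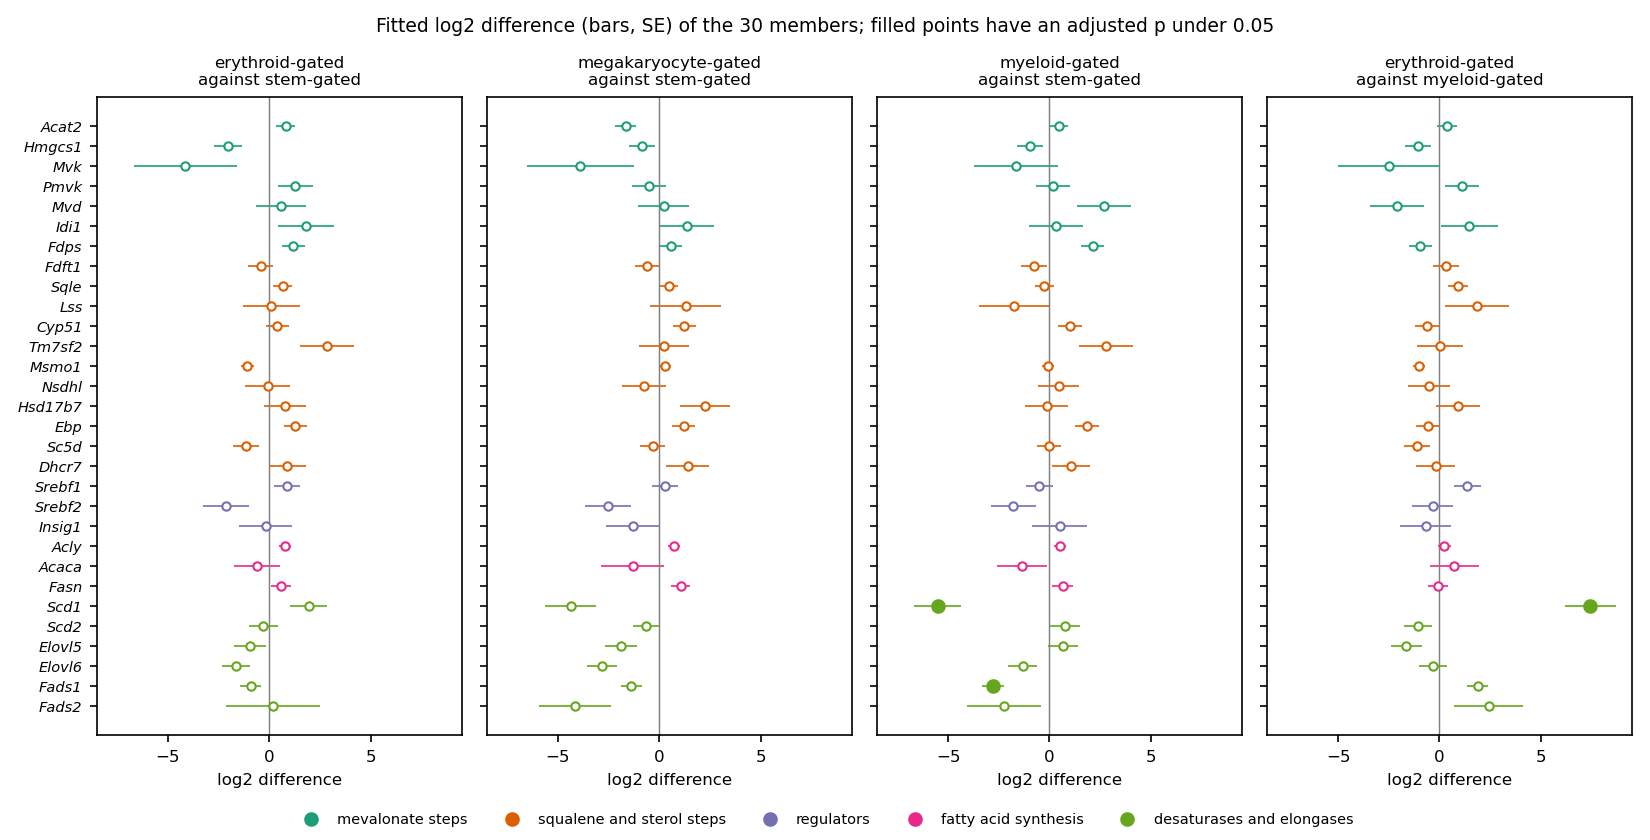
Fitted log2 difference of each of the 30 genes (points, with bars of 1 SE) for the gates compared, with filled points for an adjusted p under 0.05. Scd1 and Fads1 lie lowest in myeloid-gated against stem-gated cells at -5.50 and -2.80, and most other genes lie within a few SE of 0.

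The mevalonate steps lead from acetyl-CoA to farnesyl diphosphate, and none of the 7 genes was called in any comparison of gates. Their summed level was 320 ± 106 CPM in stem-gated cells (SD, n = 5), 241 ± 52.1 in erythroid-gated, 193 ± 102 in megakaryocyte-gated and 189 ± 75.1 in myeloid-gated cells (n = 3 each). Stem means take in the mice of days 3 and 10, which have no erythroid or myeloid sum, and over the 3 day 17 mice the stem mean was 291 ± 139 CPM. Hmgcs1 (chromosome 13: 119690379-119708260, plus strand) makes HMG-CoA, the substrate of the rate-limiting step. It stood at 75.3, 115, 75.9, 81.9 and 42.2 CPM in stem-gated cells, 40.0, 4.70 and 13.2 CPM in erythroid-gated cells and 37.4, 12.0 and 40.9 CPM in myeloid-gated cells. Every stem sum lay above every erythroid and every myeloid sum, although 99.1% of the counts in the stem sum of m605 came from 1 cell. The share of cells did not follow: thinned to equal depth, 18.4% of stem-gated, 19.1% of erythroid-gated and 22.8% of myeloid-gated cells of day 17 had counts of Hmgcs1. In megakaryocyte-gated cells Hmgcs1 was at 86.4, 59.3 and 27.7 CPM and overlapped with stem-gated cells. Its fitted difference was -2.04 (SE 0.67, edgeR adjusted p = 0.0916) for erythroid-gated and -0.97 (SE 0.65, adjusted p = 0.446) for myeloid-gated against stem-gated cells.

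Fdps (chromosome 3: 89093588-89101959, minus strand) makes farnesyl diphosphate, the branch point towards sterols and prenylated proteins. It was listed at 7.40, 5.84, 6.39, 2.23 and 3.58 CPM in stem-gated cells and 21.3, 10.5 and 11.6 CPM in myeloid-gated cells, with no overlap. The difference of 2.13 (SE 0.57) had an edgeR adjusted p of 0.0626, and DESeq2 called it, as it did 6.5% of all genes. Erythroid-gated cells held 12.2, 5.80 and 7.41 CPM of Fdps and megakaryocyte-gated cells 8.07, 6.84 and 6.53 CPM, both overlapping with the stem range. Acat2, which makes acetoacetyl-CoA, was at 100, 69.0, 36.0, 34.99 and 22.5 CPM in stem-gated cells and 32.4, 16.2 and 4.98 CPM in megakaryocyte-gated cells. It was lower than stem in all 3 mice with megakaryocyte sums (log2 -1.67, SE 0.51, edgeR adjusted p = 0.147), while the thinned share of day 17 cells with Acat2 was 17.02% in stem-gated and 22.4% in megakaryocyte-gated cells.

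The other 4 mevalonate genes had wide ranges between mice. Pmvk, the second mevalonate kinase, was at 120, 145, 156, 8.19 and 56.9 CPM in stem-gated cells, 87.2, 130 and 164 CPM in erythroid-gated cells and 73.6, 47.0 and 42.5 CPM in myeloid-gated cells. Each erythroid sum of Pmvk lay above each myeloid sum, but the difference was not called (log2 1.12, SE 0.83, edgeR adjusted p = 0.600). Thinned to equal depth, 69.7% of erythroid-gated, 44.4% of myeloid-gated and 34.0% of stem-gated cells of day 17 had counts of Pmvk. Mvk, the first kinase, ranged from 0.358 to 260 CPM over the stem sums, and 1 cell of m605 held all counts of the highest. Mvd, the decarboxylase that follows, was at 21.5, 26.9, 29.6, 0 and 6.08 CPM in stem-gated and 44.1, 30.3 and 26.1 CPM in myeloid-gated cells. Idi1, the isomerase that makes the second isoprene unit, was near the floor, at no more than 1.93 CPM in any sum tested.

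The 11 genes from squalene to cholesterol also gave no call by the main test, and their sums were 457 ± 198 CPM in stem-gated (n = 5), 373 ± 81.4 in erythroid-gated, 630 ± 172 in megakaryocyte-gated and 412 ± 125 CPM in myeloid-gated cells (SD, n = 3 each). Over the 3 day 17 mice their stem mean was 385 ± 231 CPM, which lies below the myeloid mean. Msmo1 (chromosome 8: 64718139-64733792, minus strand), a methyl sterol oxidase, came closest. Its levels were 182, 144, 125, 35.7 and 83.4 CPM in stem-gated cells and 61.2, 20.1 and 24.6 CPM in erythroid-gated cells. The erythroid sum was the lower one in each of 3 mice, while the ranges overlap because the stem sum of m605 is low. The difference was -1.08 (SE 0.31, edgeR adjusted p = 0.0591). It passed the threshold without mouse m4539 (adjusted p = 0.0448) and with RLE scaling (0.0341). It also passed without the mouse block (0.0164), which drops the pairing of gates, and with the shared plate of m605 and m606 added (0.00992). That plate entered as a further block although its cells come from mice already in the fit, so these mice were counted again. Over the cells above the cell cycle median alone it was 0.21 (adjusted p = 0.963). Msmo1 was at 181, 151 and 72.5 CPM in megakaryocyte-gated and 78.2, 38.6 and 57.2 CPM in myeloid-gated cells, all within the stem range.

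Ebp (chromosome X: 8185329-8193512, minus strand) shifts a double bond in the sterol ring. It stood at 41.9, 70.5, 47.7, 16.4 and 136 CPM in stem-gated cells, 120, 107 and 169 CPM in erythroid-gated cells and 218, 131 and 183 CPM in myeloid-gated cells. Ebp was higher than stem in 3 of 3 mice in both lineages, and the ranges overlap through the stem sum of m606. The myeloid difference of 1.86 (SE 0.58) had an edgeR adjusted p of 0.105 and was called by DESeq2. The erythroid difference was 1.28 (SE 0.58, adjusted p = 0.203). Ebp lies on the X chromosome, and mouse m4528, which differs in X- and Y-linked transcripts, showed the same direction as m605 and m606.

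Sqle, squalene epoxidase, was at 145, 112, 93.6, 26.1 and 48.7 CPM in stem-gated cells, 88.3, 69.4 and 63.6 CPM in erythroid-gated cells and 62.6, 22.4 and 29.99 CPM in myeloid-gated cells. The stem sums overlap with both lineages, while each erythroid sum of Sqle lay above each myeloid sum (log2 0.92, SE 0.47, edgeR adjusted p = 0.378). Cyp51, the lanosterol demethylase, was at 67.5, 35.2, 21.3, 10.4 and 20.4 CPM in stem-gated and 41.4, 49.2 and 60.96 CPM in megakaryocyte-gated cells. Fdft1, squalene synthase, was at 53.3, 47.0, 54.6, 14.1 and 21.5 CPM in stem-gated, 18.1, 15.2 and 19.4 CPM in erythroid-gated and 14.1, 14.8 and 8.52 CPM in myeloid-gated cells. These values are uncertain for Cyp51 and Fdft1, whose 3′ ends overlap Akap9 and Ctsb on the opposite strand, since it is not given whether counting used strand. Sc5d, the lathosterol oxidase, was at 28.2, 28.5, 61.6, 10.4 and 60.8 CPM in stem-gated and 10.97, 10.5 and 17.4 CPM in erythroid-gated cells, with overlap at the stem sum of m605 (log2 -1.15, SE 0.63, edgeR adjusted p = 0.296). The thinned share of day 17 cells with Sc5d was 13.5% in stem-gated and 21.3% in erythroid-gated cells. Nsdhl, Lss, Tm7sf2, Hsd17b7 and Dhcr7, which act between lanosterol and cholesterol, had adjusted p of 0.226 or above in each comparison of gates. Their sums often rested on few cells, and Lss ranged from 0 to 34.7 CPM between stem sums.

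The 3 regulators were not called. Srebf2, the sterol regulatory element-binding protein that drives cholesterol genes, was at 23.2, 18.4, 33.1, 2.98 and 8.95 CPM in stem-gated cells. It was at 2.57, 2.76 and 5.78 CPM in erythroid-gated, 0.550, 2.51 and 8.40 CPM in megakaryocyte-gated and 5.38, 3.13 and 3.58 CPM in myeloid-gated cells. The 4 highest stem sums lay above every sum of the other gates, and m605 fell among them. Srebf2 gave differences of -2.13 (SE 1.14) in erythroid-gated, -2.53 (SE 1.14) in megakaryocyte-gated and -1.78 (SE 1.12) in myeloid-gated cells, with edgeR adjusted p of 0.287, 0.313 and 0.417. Srebf1, which drives fatty acid genes, was at 17.4, 14.8, 22.5, 19.4 and 16.1 CPM in stem-gated cells and 51.3, 28.0 and 34.3 CPM in erythroid-gated cells. The Srebf1 ranges do not overlap, but the fitted difference of 0.86 (SE 0.64) had an edgeR adjusted p of 0.453, and Rai1 overlaps its 3′ end on the opposite strand. Insig1, which retains the sterol sensor in the endoplasmic reticulum, was at 36.5, 24.3, 29.8, 0 and 6.08 CPM in stem-gated and 12.2, 5.34 and 3.08 CPM in erythroid-gated cells.

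None of the 3 fatty acid synthesis enzymes was called, and their levels overlapped between gates. Acly, which supplies acetyl-CoA from citrate, was at 169, 199, 107, 48.4 and 63.3 CPM in stem-gated, 129, 94.8 and 94.2 CPM in erythroid-gated and 310, 206 and 89.6 CPM in megakaryocyte-gated cells. The differences of Acly from stem were 0.75 (SE 0.30, edgeR adjusted p = 0.154) in erythroid-gated and 0.74 (SE 0.29, adjusted p = 0.249) in megakaryocyte-gated cells. Fasn, fatty acid synthase, was at 79.7, 85.9, 111, 26.8 and 25.1 CPM in stem-gated, 115, 74.8 and 40.9 CPM in erythroid-gated, 69.3, 225 and 82.4 CPM in megakaryocyte-gated and 90.4, 64.7 and 47.8 CPM in myeloid-gated cells. Fasn differed from stem by 1.05 (SE 0.46, adjusted p = 0.299) in megakaryocyte-gated cells. Acaca, acetyl-CoA carboxylase, was at 11.3, 5.64, 10.8, 29.0 and 10.7 CPM in stem-gated cells, where 1 cell held all counts of m605. The sums of the 3 genes were 197 ± 89.4 CPM (n = 5) in stem-gated, 191 ± 57.3 in erythroid-gated, 336 ± 139 in megakaryocyte-gated and 164 ± 77.6 CPM in myeloid-gated cells (SD, n = 3 each). Over the 3 day 17 mice the stem mean of these 3 genes was 144 ± 73.6 CPM, below the erythroid and myeloid means, so the order of stem and both lineages turned.

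The calls fell among the 6 desaturases and elongases, whose summed level was 403 ± 94.1 CPM in stem-gated (n = 5), 246 ± 70.9 in erythroid-gated, 158 ± 85.5 in megakaryocyte-gated and 287 ± 37.2 CPM in myeloid-gated cells (SD, n = 3 each). Over the 3 day 17 mice the stem mean was 391 ± 130 CPM. The order within mice was mixed: in m4528 the stem sum (277 CPM) lay below the erythroid (327) and myeloid sums (328). It lay above both in m605 (533 against 213 and 276 CPM) and in m606 (363 against 198 and 256 CPM). In the stem sum of m605, Elovl5 (217 CPM) and Fads1 (230 CPM) each came mostly from 1 cell. Scd1 (chromosome 19: 44394455-44407879, minus strand), the stearoyl-CoA desaturase that makes oleate, was at 18.3, 0.446, 2.69, 8.19 and 13.2 CPM in stem-gated cells. It was at 9.75, 37.8 and 18.8 CPM in erythroid-gated cells. In myeloid-gated cells it was at 0, 0.125 and 0.316 CPM, which is 0, 1 and 3 counts. In megakaryocyte-gated cells it was at 0.0917, 0 and 0.311 CPM. Erythroid and myeloid sums of Scd1 did not overlap, and each stem sum lay above each myeloid sum. Scd1 was lower in myeloid-gated than in stem-gated cells (log2 -5.50, SE 1.16, edgeR adjusted p = 0.026) and higher in erythroid-gated than in myeloid-gated cells (log2 7.45, SE 1.27, adjusted p = 0.00993), in 3 of 3 mice each. These fitted differences depend on the prior count where a sum is at or near 0. In erythroid-gated against stem-gated cells the difference was 1.95 (SE 0.92, adjusted p = 0.225).

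Few cells carried Scd1. In the stem sums of day 17, 1 cell held 96.9% (m4528), 100% (m605) and 97.3% (m606) of its counts, and in the erythroid sums 1 cell held 97.2%, 86.1% and 23.1%. Over the day 17 mice, more than 10 counts of Scd1 were found in 3 of 156 stem-gated cells (1.92%, exact 95% interval 0.398 to 5.52), in 11 of 92 erythroid-gated cells (12.0%, 6.12 to 20.4), in 0 of 50 megakaryocyte-gated cells (up to 7.11%) and in 0 of 173 myeloid-gated cells (up to 2.11%). By mouse the erythroid shares were 5.56% (m4528), 11.1% (m605) and 15.8% (m606), and the stem shares 0.971%, 6.25% and 2.70%, the stem shares being 1 cell each. The median depth of these cells was 86596 counts in stem-gated and 225310 in erythroid-gated cells, so a minimum of 10 counts is not the same share of a cell in both. Among cells deep enough to be thinned to 50000 counts, 16.9% of erythroid-gated, 2.84% of stem-gated, 2.04% of megakaryocyte-gated and 1.23% of myeloid-gated cells had any count of Scd1. The intervals cover counting error only, pool cells of 3 mice and compare no gates. The call in myeloid-gated cells ended without mouse m4528 (adjusted p = 0.153), m605 (0.152) or m606 (0.212). Over cells above the cell cycle median alone the difference turned to 1.72 (adjusted p = 0.787). That setting leaves few stem-gated cells per sum, and the cause of the turn was not tested. The erythroid against myeloid call also ended without m4528 (0.093), m605 (0.103) or m606 (0.151), and lay between 6.81 and 8.65 over all alternatives, and over cells above the cell cycle median alone it was 7.91 (adjusted p = 0.0514).

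Fads1 (chromosome 19: 10182888-10196877, plus strand), the delta-5 desaturase of polyunsaturated fatty acids, was at 118, 109, 85.8, 230 and 87.7 CPM in stem-gated cells and 31.9, 16.7 and 7.79 CPM in myeloid-gated cells. Each stem sum lay above each myeloid sum, and 1 cell held 82.5% of the counts in the stem sum of m605. Fads1 was lower in myeloid-gated cells (log2 -2.80, SE 0.55, edgeR adjusted p = 0.0186, in 3 of 3 mice). Its levels were 70.8, 84.5 and 54.3 CPM in erythroid-gated cells and 20.4, 82.3 and 36.1 CPM in megakaryocyte-gated cells, also below every stem sum but not called against stem (-0.92, SE 0.51, adjusted p = 0.298, and -1.39, SE 0.51, adjusted p = 0.215). Erythroid and myeloid sums did not overlap (log2 1.89, SE 0.52, adjusted p = 0.0746). More than 10 counts of Fads1 were found in 16.5% of 413 stem-gated cells (exact 95% interval 13.02 to 20.4), 33.7% of 95 erythroid-gated, 23.2% of 69 megakaryocyte-gated and 8.99% of 178 myeloid-gated cells (5.23 to 14.2). These shares pool cells of all mice, and most stem-gated cells are of days 3 and 10. The intervals cover counting error only and compare no gates. Median depth was 121340 counts in these stem-gated and 251250 in the myeloid-gated cells, so the cut is not the same share of a cell. Thinned to equal depth, the shares at day 17 were 23.4% in stem-gated, 41.6% in erythroid-gated, 34.7% in megakaryocyte-gated and 17.9% in myeloid-gated cells. Between stem-gated cells and both erythroid-gated and megakaryocyte-gated cells the order of the shares goes against that of the CPM, and no order is read from it. The myeloid call ended without mouse m4528 (adjusted p = 0.0609), m605 (0.148) or m606 (0.234), with the stricter gate (-2.03, adjusted p = 0.176) and over cells above the cell cycle median alone (-1.85, adjusted p = 0.217).

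**Figure D3:**
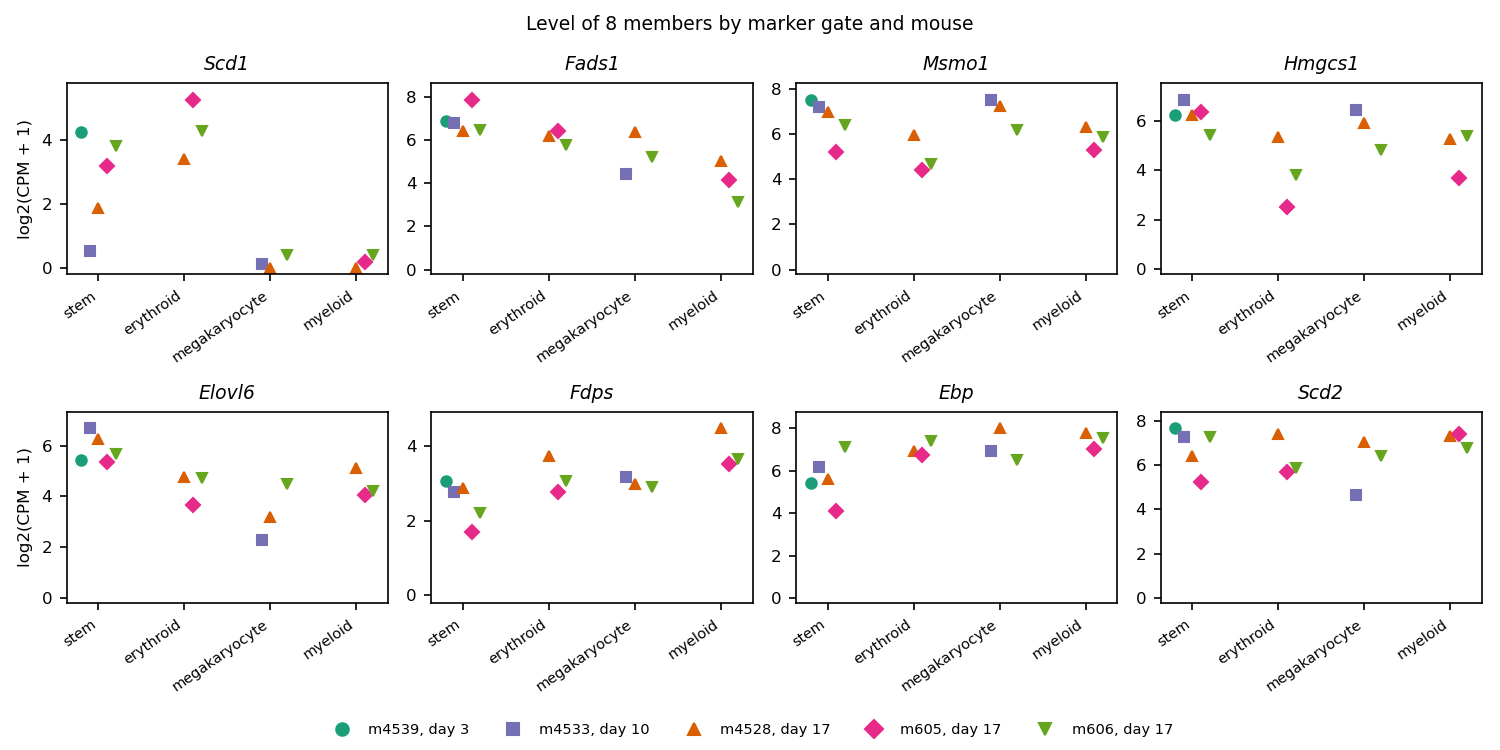
Level of 8 of the genes in each sum on a log2(CPM + 1) scale, by gate. Points are mice. Scd1 lies near 0 in the megakaryocyte-gated and myeloid-gated sums, and Fads1 and Elovl6 lie highest in the stem-gated sums.

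Elovl6 (chromosome 3: 129532355-129638495, plus strand), which elongates palmitate to stearate, had its highest summed levels in stem-gated cells. It was at 42.6, 102, 76.8, 40.2 and 49.4 CPM there, 26.3, 11.5 and 25.5 CPM in erythroid-gated, 3.85, 8.20 and 21.1 CPM in megakaryocyte-gated and 34.1, 15.8 and 17.4 CPM in myeloid-gated cells. Every stem sum lay above every other sum, and within mice it was higher in 3 of 3 for each gate. Thinned to equal depth, Elovl6 was found in 15.6% of stem-gated, 22.5% of erythroid-gated, 20.4% of megakaryocyte-gated and 16.05% of myeloid-gated cells of day 17, an order that goes against that of the CPM, so no order is read from these shares. None of the differences was called: -1.64 (SE 0.70, edgeR adjusted p = 0.179) in erythroid-gated, -2.85 (SE 0.74, adjusted p = 0.102) in megakaryocyte-gated and -1.33 (SE 0.70, adjusted p = 0.325) in myeloid-gated cells. In megakaryocyte-gated cells all 6 desaturases and elongases had negative differences from stem, 5 of them with an unadjusted p under 0.05, with a median of -2.38 against -0.09 over all genes. Megakaryocyte-gated cells were the gate that shared most of the stem markers.

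Scd2, another stearoyl-CoA desaturase on chromosome 19 (44293674-44306864, plus strand), did not follow Scd1. It was at 200, 151, 84.9, 37.2 and 153 CPM in stem-gated, 169, 49.8 and 58.3 CPM in erythroid-gated, 24.3, 131 and 84.6 CPM in megakaryocyte-gated and 156, 166 and 108 CPM in myeloid-gated cells. The myeloid difference of Scd2 was 0.78 (SE 0.73, edgeR adjusted p = 0.605). More than 10 counts of Scd2 were found in 94 stem-gated, 35 erythroid-gated, 20 megakaryocyte-gated and 79 myeloid-gated cells, and both genes were found in 2 stem-gated and 3 erythroid-gated cells. In the last 1000 bases of the 2 transcripts, 0 of 951 windows of 50 bases were shared, so reads from the ends of these 2 genes could be told apart. Scd3 and Scd4 were not compared. Elovl5, an elongase of polyunsaturated fatty acids, was at 23.1, 72.1, 24.1, 217 and 46.9 CPM in stem-gated, 38.9, 29.6 and 39.5 CPM in erythroid-gated and 105, 77.0 and 122 CPM in myeloid-gated cells. In the stem sum of m605, 1 cell held 88.4% of its counts, and the other 4 stem sums lay below each myeloid sum (log2 0.67, SE 0.76, edgeR adjusted p = 0.686). Fads2, the delta-6 desaturase, was low throughout, with no sum above 13.2 CPM.

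The remaining genes of the pathway gave calls in both directions. Beside the counts of these lists, 10.5% of all genes were called in erythroid-gated and 6.16% in myeloid-gated against stem-gated cells. The shares of all genes were 1.3% in megakaryocyte-gated against stem-gated and 6.1% in erythroid-gated against myeloid-gated cells. Whether the lists differ from these shares was not tested. Of 17 tested synthesis enzymes outside the set, 3 were higher in erythroid-gated than in stem-gated cells. Hacd3, which acts in fatty acid elongation, was at 54.4, 19.6, 41.5, 24.6 and 26.8 CPM in stem-gated and 139, 80.7 and 115 CPM in erythroid-gated cells, with no overlap (log2 2.03, SE 0.35, edgeR adjusted p = 0.00702). Tecr, the last enzyme of the elongation cycle (1.02, adjusted p = 0.0464), and Lbr, a sterol reductase of the nuclear envelope (1.64, adjusted p = 0.0381), were the others, and Lbr overlaps Dnah14 at its 3′ end on the opposite strand. In myeloid-gated cells Tecr was higher (1.18, adjusted p = 0.0368) and Acss2, which makes acetyl-CoA from acetate, was lower. Acss2 was at 47.5, 153, 73.3, 20.1 and 97.0 CPM in stem-gated, 72.9, 23.1 and 53.9 CPM in erythroid-gated and 11.2, 2.51 and 7.05 CPM in myeloid-gated cells. Its difference was -2.70 (SE 0.56, edgeR adjusted p = 0.0241) between myeloid-gated and stem-gated cells and 2.76 (adjusted p = 0.0226) between erythroid-gated and myeloid-gated cells. Gss overlaps the 3′ end of Acss2 on the opposite strand. Each of these calls of Hacd3, Tecr, Lbr and Acss2 ended without mouse m606 (adjusted p of 0.183 for Hacd3, 0.292 and 0.265 for Tecr, 0.274 for Lbr, 0.283 and 0.261 for Acss2) and without m4528 (0.126, 0.107 and 0.184, 0.0792, 0.108 and 0.11). Without m605 Hacd3 kept its call (0.0324), and the others lay at 0.161 and 0.161 (Tecr), 0.109 (Lbr), 0.113 and 0.129 (Acss2), with every direction kept.

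Of 13 other regulators 1 was called in either lineage, higher in both. Tmem97, a sterol-regulated membrane protein, was at 14.996, 17.9, 23.0, 6.70 and 41.2 CPM in stem-gated, 85.9, 51.9 and 94.2 CPM in erythroid-gated and 85.9, 64.3 and 70.8 CPM in myeloid-gated cells, without overlap. Its differences were 1.94 (edgeR adjusted p = 0.032) and 2.13 (adjusted p = 0.0348). The calls of Tmem97 ended without mouse m4528 (adjusted p of 0.251 and 0.322), m605 (0.0719 and 0.145) or m606 (0.199 and 0.214), and the myeloid one without m4533 (0.057). Pgrmc1, a heme-binding protein that interacts with Insig1, and Mbtps1, the protease that releases the sterol regulatory element-binding proteins, gave 0.38 and 0.85 in erythroid-gated cells and were not called.

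Of 10 uptake and transport genes, myeloid-gated cells had 1 called higher and 1 lower. Npc2, which carries cholesterol out of lysosomes, was at 738, 853, 884, 502 and 713 CPM in stem-gated and 1772, 1498 and 1439.5 CPM in myeloid-gated cells (log2 1.49, SE 0.16, edgeR adjusted p = 0.00142). It was at 460, 394 and 377 CPM in megakaryocyte-gated cells, below each stem sum (-0.87, adjusted p = 0.0354), and lower in erythroid-gated than in myeloid-gated cells (-1.34, adjusted p = 0.00169). Stard4, which moves cholesterol between membranes, was at 101, 169, 94.5, 53.6 and 123 CPM in stem-gated and 35.5, 11.8 and 21.0 CPM in myeloid-gated cells, without overlap (-1.68, SE 0.34, adjusted p = 0.021). Scarb1, a receptor for high-density lipoprotein, was higher in erythroid-gated cells (1.99, adjusted p = 0.044), and its myeloid difference of 1.71 was not called. The myeloid call of Npc2 held without mouse m4528 (adjusted p = 0.0481) and m605 (0.0158) and ended without m606 (0.0682). Its erythroid against myeloid call ended without m606 (0.086), and its megakaryocyte call without m4533 (0.105), m4528 (0.217) or m606 (0.307). The call of Stard4 ended without m4528 (0.099), m605 (0.1) or m606 (0.298), and that of Scarb1 likewise (0.234, 0.164 and 0.304).

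Of 7 efflux and storage genes 1 was called lower in each lineage. Apoe, a lipoprotein component that carries cholesterol out of cells, was at 819, 848, 1641, 724 and 1177 CPM in stem-gated, 994, 484 and 416 CPM in erythroid-gated and 458, 39.0 and 149 CPM in myeloid-gated cells. Each stem sum of Apoe lay above each myeloid sum (-2.66, SE 0.44, edgeR adjusted p = 0.00943), and it was higher in erythroid-gated than in myeloid-gated cells (1.82, adjusted p = 0.0414). Abcg1, a cholesterol exporter, was at 45.1, 25.4, 45.6, 60.3 and 37.6 CPM in stem-gated, 2.03, 0.460 and 5.30 CPM in erythroid-gated and 19.9, 15.5 and 24.0 CPM in myeloid-gated cells. It was lower in erythroid-gated cells, with no overlap (-4.75, SE 0.96, adjusted p = 0.0151). Dgat2, which makes triglycerides, was lower in erythroid-gated than in myeloid-gated cells (-6.72, SE 1.68, adjusted p = 0.0495). It was at 0.135, 0.276 and 0.481 CPM in erythroid-gated cells, which is 1, 3 and 5 counts, and at 21.7, 10.5 and 23.15 CPM in myeloid-gated cells. The size of this difference therefore depends on the prior count. Plin2, which coats lipid droplets, gave 1.13 in erythroid-gated and 0.67 in myeloid-gated cells, and Soat1, which esterifies cholesterol for storage, gave 2.83 in myeloid-gated cells. Neither was called. The myeloid call of Apoe held without mouse m605 (adjusted p = 0.0243) and ended without m4528 (0.0573) or m606 (0.155), and its erythroid against myeloid call ended without m4528 (0.106), m605 (0.122), m606 (0.246) or m4533 (0.067). The call of Abcg1 ended without m4528 (0.128), m605 (0.0784) or m606 (0.11), and that of Dgat2 without m4528 (0.117), m605 (0.148), m606 (0.333), m4533 (0.0654) or m4539 (0.0541).

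Of 11 tested fatty acid activation and oxidation genes 1 was higher and 1 lower in erythroid-gated cells. Acsl5, which activates long-chain fatty acids, was at 85.2, 109, 89.5, 39.5 and 53.0 CPM in stem-gated, 350, 297 and 266 CPM in erythroid-gated and 125, 71.2 and 114 CPM in myeloid-gated cells. The erythroid sums of Acsl5 lay above all others (2.39, SE 0.32, edgeR adjusted p = 0.00238 against stem, and 1.44, adjusted p = 0.0301, against myeloid), and Zdhhc6 overlaps its 3′ end on the opposite strand. Acadm, the medium-chain dehydrogenase of fatty acid oxidation, was lower (-1.36, adjusted p = 0.0435), and Acadl, its long-chain relative, gave 0.90 (adjusted p = 0.0506). The call of Acsl5 against stem held without mouse m605 (adjusted p = 0.0212) and ended without m4528 (0.0512) or m606 (0.093), and against myeloid it ended without m4528 (0.186), m605 (0.127) or m606 (0.25). The call of Acadm ended without m4528 (0.169), m605 (0.146), m606 (0.2) or m4533 (0.0618). Over cells above the cell cycle median alone, 1 of the 8 erythroid calls of these other genes remained (Acsl5) and 0 of the 6 myeloid ones, while all 14 differences kept their direction. Several were as large as or larger than over all cells: in erythroid-gated cells Hacd3 gave 3.22, Scarb1 2.40, Tmem97 2.34 and Abcg1 -6.38, and in myeloid-gated cells Acss2 gave -2.75, Apoe -2.79, Stard4 -1.99 and Tmem97 2.43. Npc2 gave 1.35 in myeloid-gated cells. Smaller ones in erythroid-gated cells were Lbr at 1.09, Tecr at 0.73 and Acadm at -0.61, and in myeloid-gated cells Tecr at 0.83. A fit of the 2 gates alone kept 1 of the 8 erythroid calls (Acsl5), 0 of the 6 myeloid ones and 0 of 1 megakaryocyte call. That fit kept 4 of 5 calls between erythroid-gated and myeloid-gated cells. With at least 20 cells per sum 2 of 8, 3 of 6, 0 of 1 and 2 of 5 remained. The cause of these losses was not tested.

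**Figure D4:**
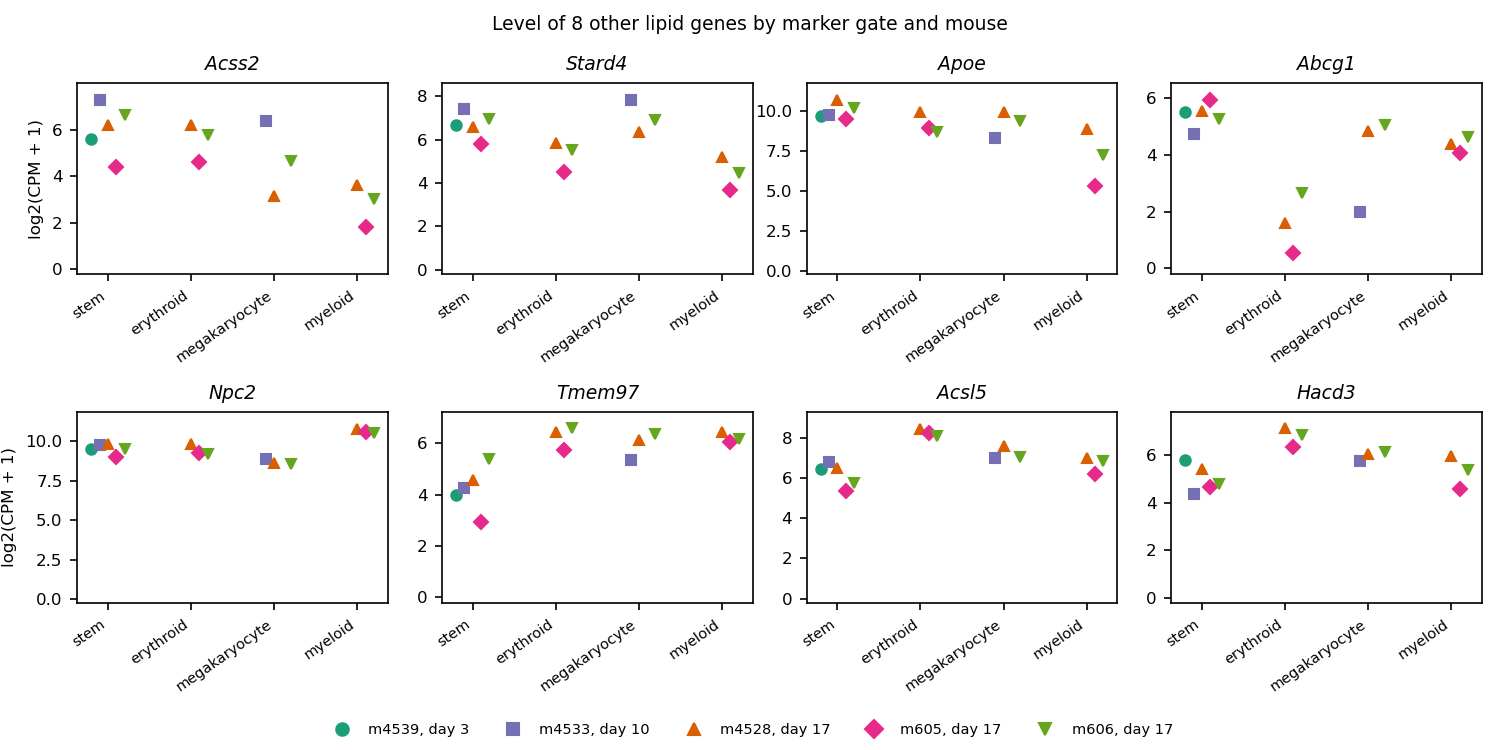
Level of 8 pathway genes outside the set in each sum on a log2(CPM + 1) scale, by gate. Points are mice. Acsl5 and Hacd3 lie highest in erythroid-gated sums and Npc2 in myeloid-gated sums. For Acss2, Stard4 and Apoe the myeloid-gated sums lie below every stem-gated sum but overlap with sums of other gates.

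The cells sampled change from mostly stem-gated at day 3 to several lineages at day 17, so over all kept cells the day and the cell makeup move together. Over all kept cells the summed level of the 30 genes was 1659 CPM at day 3, 1645 CPM at day 10 and 1427, 879 and 1013 CPM in the 3 mice of day 17, where m605 and m606 also come from the second table. As a slope per 14 days with the table as a term, none of the 30 was called, and 0 of 16740 genes tested were (0%), with 1 of the 30 and 1473 of all genes at an unadjusted p under 0.05. Ebp was at 43.7 CPM at day 3, 106 at day 10 and 169, 103 and 159 CPM at day 17, and its slope was 2.07 (SE 0.43, edgeR adjusted p = 0.342). DESeq2 called Ebp higher. DESeq2 called 2.02% of all genes higher and 0.699% lower. Positive slopes numbered 12 and negative ones 18. The second table holds day 17 alone, so with the table term m605 and m606 do not inform the slope. The slope rests on m4539, m4533 and m4528, 1 mouse per day, here and within stem-gated cells. Among these, m4528 alone had Xist near 0 (0.156 CPM) and transcripts of Eif2s3y. For Ebp, which lies on the X chromosome, day and this difference between mice cannot be told apart.

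Within stem-gated cells 29 of the 30 genes could be tested, Idi1 being too low, and none was called, with 0 of 13593 genes called (0%) and 0 of the 29 at an unadjusted p under 0.05, against 197 of all genes. DESeq2 called 0 of the 29, beside 0.0515% of all genes higher and 0.00736% lower. The median slope was -0.07 against -0.06 over all genes, and 14 were positive and 15 negative. In stem-gated cells Ebp stood at 41.9 CPM at day 3, 70.5 at day 10 and 47.7, 16.4 and 136 CPM at day 17. The stem-gated cells of m605 and m606 had lower levels than those of the first table for Pmvk, Fdft1, Sqle, Acly, Fasn, Srebf2 and Insig1, as the values above show, and for these mice the table and the mouse cannot be told apart. With 5 mice the slope left 2 residual degrees of freedom, and on simulated sums 1% of 4-fold and 38% of 16-fold changes were recovered within the stem gate.

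**Figure D5:**
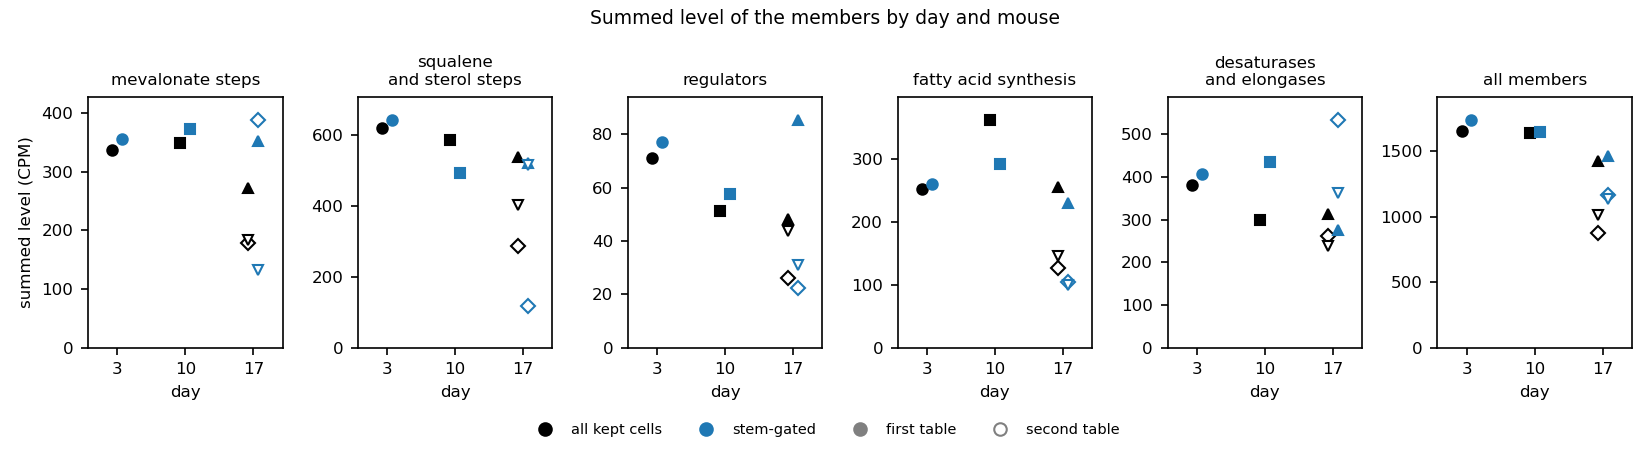
Summed level of the genes of each role and of all 30 genes (CPM) by day. Black points are all kept cells of a mouse and blue points its stem-gated cells, filled for the first table and open for the second. The summed level is 1659 CPM at day 3 and 879 to 1427 CPM at day 17 over all kept cells.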

How the data were processed

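Lin- Tom+ mouse cells on 14 plates from 5 mice were read as 3′-end single-cell libraries. The deposited files are 2 matrices of whole-number counts, with genes as rows and barcodes as columns and no normalization. The submitters' processing notes name GRCm38. Not given in the sources used here are the aligner, the counting tool and the use of strand or of molecular identifiers. Each count was treated as a read, so intervals cover counting error only. All columns could be tied to a plate.

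Genes were matched by symbol, printed in capitals in the files, which gave 22842 shared genes of 22971 and 34486. Barcodes with at least 500 genes numbered 1672, and a minimum of 10000 counts was added because these exceed the wells, which left 1010 cells (585 and 425 per table). No doublet caller was run, since cells were sorted into wells. The 30 genes, the marker lists and the other pathway lists were chosen with earlier results of these data known. A marker was on at 100 CPM and 3 counts or more, and the gate thresholds were set after the marker counts had been seen. The myeloid gate joins 83 cells with more neutrophil markers, 111 with more monocyte markers and 14 tied. A few listed genes, such as Ahsp, Slc4a1, Scd4, Elovl3 and Hadha, were not analysed here.

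Counts were summed by gate and mouse (at least 10 cells, 14 sums) and fitted with edgeR 4.0.16 in R 4.3.3 (TMM scaling, filterByExpr, quasi-likelihood test, mouse and gate as terms, 6 residual degrees of freedom), with Benjamini-Hochberg adjustment over all 17460 genes. The mouse pairs the gates because the sums of a mouse come from the same animal. The plate of mice m605 and m606 together was left out. Mice m4539 and m4533 have no erythroid and no myeloid sum, so these comparisons rest on m4528, m605 and m606. The change with day was a slope with the table as a term over 5 mice, printed per 14 days. Mice m605 and m606, both of day 17 in the second table, do not inform that slope. DESeq2 1.42.0, RLE scaling, no filter on low counts, other gates and cell minimums, cycling cells alone, a fit of the 2 gates compared and leaving out each mouse were the alternatives. The fit of cycling cells alone took sums of at least 5 cells. Leaving out mice for the summed levels was added after seeing the data. The fits were tested on simulated data of 17109 genes for the erythroid and 17123 for the myeloid comparison, and 14036 for the slope within the stem gate. All 30 genes were accounted for. Of each other pathway list the rule named the 3 called genes with the largest difference and, where fewer were called, the most abundant up to 3. Positions are from GENCODE on GRCm38 and promoters from RefSeq on GRCm38.p6. Python 3.11.15 was used for the remaining steps.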

Additional observations from a re-analysis of the deposited data

Results flagged for a closer look

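In 6 of 60 groups of 5 mice (the 30 genes in stem-gated cells and in all kept cells) 1 mouse lay far from the other 4, where chance gives about 1 group in 20. Among stem-gated cells these were values of mouse m605, which had 16 such cells. Mvk was at 259.82 CPM there, and 1 cell held 100% of its counts. Acaca was at 29.034 CPM, also with 100% in 1 cell. Elovl5 was at 217.38 CPM with 88.4% in 1 cell, and Fads1 at 230.04 CPM with 82.5% in 1 cell. Over all kept cells, Fdps was high in mouse m4528 at 14.069 CPM, where 1 cell held 3.76% of the counts. Elovl5 was low in mouse m4539, the day 3 mouse, at 23.225 CPM, with 16.4% in 1 cell.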

How the results depend on the processing

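In erythroid-gated against stem-gated cells, where none of the 30 genes was called lower, DESeq2 called 5, RLE scaling 1, a minimum of 5 cells 1, the plate of m605 and m606 as a further block 1, and leaving out a mouse 0 to 1. In myeloid-gated cells, with 0 called higher, DESeq2 called 2 and the added plate 1. The 2 called lower became 0 with a minimum of 20 cells, 1 with the stricter gate, 0 with cells above the cell cycle median alone, 0 in a fit of the 2 gates alone, and 0 to 2 when a mouse was left out (0 without m4528, m605 or m606). In megakaryocyte-gated cells DESeq2 called 4 lower instead of 0. Between erythroid-gated and myeloid-gated cells, with 1 called higher and 0 lower, DESeq2 called 2 higher and 1 lower, the added plate 2 and 1, the fit of the 2 gates alone 1 lower, cells above the cell cycle median alone 0 higher, and leaving out a mouse 0 to 1 higher. DESeq2 called 1 gene, Ebp, higher with day. With no replicate block, that is without pairing the gates by mouse, 2 of the 30 were called lower in erythroid-gated and 2 higher in myeloid-gated cells, and no other count of calls changed. The cause of these shifts was not tested beyond the smaller number of sums or cells that some settings leave.

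Among cells above the cell cycle median alone 4 differences called over all cells changed sign: Scd1 in myeloid-gated cells (1.72), Cdk1 in erythroid-gated (-0.064) and myeloid-gated cells (-0.19), and Top2a in myeloid-gated cells (-0.12). Cdk1 and Top2a belong to the cell cycle list by which these cells were chosen. Their differences are therefore not independent of that choice, and nothing is read from their change of sign. Of 3040 recomputed differences of single genes 2764 kept their side of the threshold, of which 2587 kept their direction and 177, not called in either fit, changed sign. A further 246 lost a call and 26 gained one with the direction kept. Over cells above the cell cycle median 21 of those not called changed sign, Msmo1 in erythroid-gated cells among them. RLE scaling moved the median of all genes by -0.15 in erythroid-gated and -0.22 in myeloid-gated against stem-gated cells. No filter on low counts and leaving out the cell with a very high total changed no count of the 30. As a mean of the cells' own CPM, the 30 genes summed to 1409.5 CPM in stem-gated and 1056 in erythroid-gated cells. The values were 1407 CPM in megakaryocyte-gated and 1141 CPM in myeloid-gated cells, each within 1 SD of the summed level. Leaving out 1 mouse cannot move a mean by 1 SD, so nothing is read from that alternative for the summed levels. In genes such as Scd1, 1 cell can hold nearly all counts of a sum, which limits the precision.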

Other observations

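The plate that mixed cells of m605 with cells of m606 had Scd1 at 0 CPM in stem-gated, 6.56 in erythroid-gated and 0.158 in myeloid-gated cells. Fads1 was at 42.9, 52.2 and 17.5 CPM there. In the 9 cells gated as basophils no count of Scd1 was found.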
